A study of Mus musculus with 6 samples.

Results

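The array used in this study carries 16194 noncoding probes that have no gene name and are instead called after a stretch of a mouse chromosome, such as chr7:28592214-28605984 on the forward strand. They were taken as all non-control probes whose systematic name is a chromosome interval, and they made up 29.1% of the 55681 non-control probes. They carried 4610 names (an interval and a strand) over 3543 intervals, with 8171 probes on the forward strand, 8010 on the reverse strand and 13 with no strand given. A name had a median of 3 probes and at most 10, and 690 names had a single probe. The intervals had a median length of 7304 bases. The scanner files give mm9 (NCBI37) as the build of the array design, and all positions below are those of the probe names in that build.

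Intervals of this kind are sites of long intergenic noncoding transcription. Such RNAs are made by RNA polymerase II away from protein-coding genes, are often spliced and polyadenylated, and have been mapped from chromatin marks of active promoters and transcribed bodies and from sequencing of polyadenylated RNA. As a class they are known for low abundance and for being restricted to few tissues more often than messenger RNAs are, and a few act on chromatin or on neighbouring genes, whereas most have no assigned function. The probe sequences and an mm9 annotation were not used here, so no interval is tied to a gene and no sequence is printed, and how many places in the genome each probe matches was not determined.

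RNA came from immature female CD-1 mice (an outbred stock) that received fluorene-9-bisphenol (BHPF, a bisphenol with a fluorene bridge) at 50 mg per kg body weight per day, or its vehicle peanut oil, by gavage for 3 days. The labels give the age as 24 days, and the study's methods place the start of dosing on postnatal day 21. Liver, ovary and uterus were each hybridised as 1 pool of 3 animals per treatment, which gave the groups control liver, BHPF liver, control ovary, BHPF ovary, control uterus and BHPF uterus, with 1 one-colour array in each. There was therefore no replicate within a group, the spread between animals is unknown, and within a tissue no test between BHPF and control was possible.

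The level of a probe is the log2 of its processed signal minus the 75th percentile of its array, so that 0 is the level of the percentile probe, and a ratio is the level with BHPF minus the level without it. A probe was counted as detected where the scanner flagged it well above background. Where 1 array of a pair lacked the flag, that side was set to the lowest level flagged on that array or to its own level if higher, and the fold is then a lower limit. Where the array with the flag then had the lower level, the ratio was set to 0. Repeated spots of a probe had a median SD between 0.0876 and 0.103 on the log2 scale over the 6 arrays, which covers spot noise and nothing else. Levels of different probes are not compared as abundances, since probes differ in how well they bind.

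Before the results, 3 facts about the arrays bear on them. All 8 liver marker genes were brighter on the BHPF uterus array than on the control uterus array by at least 2-fold, with a median log2 ratio of 4.41 and a median level of -3.25 in control uterus and 0.78 in BHPF uterus. In the authors' processed table the column headed as control uterus held the values of the scanner file labelled BHPF uterus (99.1% of 38802 values within 0.001), and the other uterus column held those of control uterus, so every uterus direction below follows the scanner files and would turn if those headings were right. The 6 neutrophil markers were all at least 2-fold lower in BHPF liver (median level 1.48 in control and -1.31 in BHPF liver), 4 of 6 were lower in BHPF ovary and 3 of 6 in BHPF uterus. Of the adipocyte markers, 3 of 4 evaluated were lower in BHPF uterus, whereas 2 of 5 were higher in BHPF ovary (median log2 ratio 0.96). In pooled tissue, fewer cells of a type and less RNA per cell cannot be told apart. The part of these markers in the results below was not tested. By list median the labelled tissues carried their own markers, with a median level of 5.18 for the liver list in control liver, 2.29 for the ovary list in control ovary and 1.64 for the uterus list in control uterus. Single markers went the other way. Foxl2 of the ovary list stood at 1.27 in control liver and 0.71 in control ovary. Wnt4 of the uterus list stood at -0.27 in control ovary and -0.69 in control uterus.

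Fewer of the interval-named probes than of the protein-coding probes gave a signal. On the control arrays they were detected at 52.3% in liver, 67.3% in ovary and 60.2% in uterus, and on the BHPF arrays at 49.2%, 60.4% and 53.8% in the same order. Probes named by an NM_ accession, which stand for protein-coding messenger RNAs, reached between 71.8% and 82.6%. Probes with NR_ or XR_ accessions, which stand for annotated noncoding transcripts, lay between 51.8% and 68.6%, close to the interval-named probes on every array. Of the 16194 probes, 4496 (27.8%) were detected on no array and 6820 (42.1%) on all 6, against 13.3% and 66.1% of the NM_ probes. No interval-named probe was saturated on any array.

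**Figure D1:**
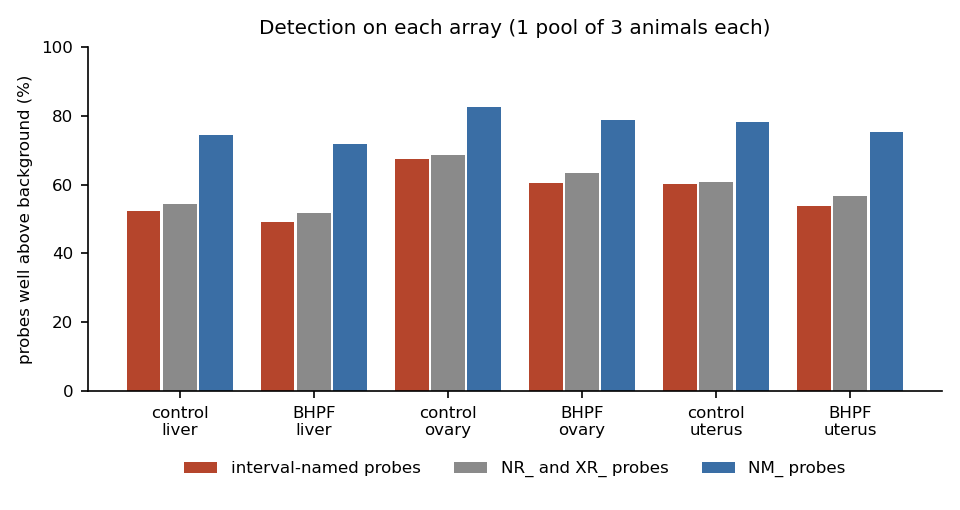
Percent of probes flagged well above background (vertical axis, from 0 to 100%) on each of the 6 arrays, for interval-named, NR_ and XR_, and NM_ probes (bars). The interval-named bars run from 49.2% in BHPF liver to 67.3% in control ovary and lie below the NM_ bars on all 6 arrays.

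Detection in a single tissue was most frequent in the ovary. In all, 10304 probes were detected on both arrays of at least 1 tissue. Of these, 66.2% were detected in all 3 tissues, against 80.1% of the NM_ probes. Detection in the ovary alone was found for 1094 probes (10.6%, against 5.47% of NM_ probes), in the liver alone for 255 (2.48%) and in the uterus alone for 262 (2.54%). NR_ and XR_ probes had a like share in the ovary alone, 11.8%. The ovary arrays also had the highest share of all probes detected, 74.5% in control ovary against 63.9% in control liver, and how far that share sets the count in ovary alone was not tested.

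Differences between the tissues were tested with a limma model over the 6 arrays with tissue and treatment as terms, and p-values were adjusted by Benjamini-Hochberg over all probes tested. The model left 2 residual degrees of freedom, and a response to BHPF that differs between tissues counts as error in it. Of 10252 interval-named probes tested, 6761 (65.9%) differed between tissues at an adjusted p under 0.05, against 80.4% of NM_ probes and 74.9% of all 40432 probes tested. The share was thus below that of the array as a whole. Among the called probes, the highest tissue was the uterus for 37.0%, the liver for 32.7% and the ovary for 30.3%. For the called NM_ probes the order was different, with 46.0% highest in liver, 27.9% in ovary and 26.1% in uterus.

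Strong restriction to 1 tissue was less frequent than for the protein-coding probes. A probe was called restricted where it was detected on both arrays of a tissue and lay at least 4-fold above the higher of the other tissues. This held for 266 of 7561 probes detected in liver (3.52%), 149 of 9682 in ovary (1.54%) and 197 of 8574 in uterus (2.30%). Over all probes detected in the tissue, 6.05% were restricted to liver, 2.73% to ovary and 2.86% to uterus. NM_ probes weighted to the same signal levels would have given 4.29% in liver, 2.85% in ovary and 2.90% in uterus, so the interval-named probes lay below them in each of the 3 tissues. The limma test also called all 266 of those in liver, 145 of 149 in ovary and 193 of 197 in uterus. It used the same arrays from which these probes were picked for their gap, so the calls are not separate evidence of restriction. The same holds for the adjusted p-values of the restricted probes named below.

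Of the 4 most restricted liver probes, 2 lay in 1 interval and on opposite strands. The forward-strand probe of chr1:71939741-71947891 stood at 2.16 in control liver and 1.90 in BHPF liver, against -5.98 in control ovary, where it was just flagged, and values from -7.90 to -5.39 on the other 3 arrays, where it was not well above background (adjusted p for tissue 6.54e-05, limma). A reverse-strand probe of the same interval stood at 1.72 and 1.71 on the liver arrays and was not well above background on any other (adjusted p 2.47e-05, limma). Both liver arrays were thus far above the 4 others on either strand.

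A second liver interval, chr16:86770170-86874921 on the reverse strand, had a probe at 2.08 in control liver and 1.85 in BHPF liver (adjusted p 1.08e-05, limma). Another of its 3 probes stood at 1.97 and 1.52 in the same arrays. Neither was well above background in ovary or uterus, so the tissue fold is a lower limit, with a gap of at least 7.40 and 7.18 on the log2 scale to the next tissue.

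In ovary the leading interval was chr5:26333765-26338143 on the forward strand, all 3 probes of which were restricted. They stood at 1.98, 1.37 and 2.03 in control ovary and at 2.10, 1.24 and 2.12 in BHPF ovary. The same probes were not well above background in control liver but were flagged in BHPF liver, at -4.11, -4.48 and -3.54, where they were at least 2.84-fold, 2.21-fold and 4.22-fold higher than the limit in control liver. In ovary the BHPF ratios of these probes were 0.12, -0.13 and 0.09. The next was chr4:63810346-63810958 on the forward strand, at 0.76 and 0.71 in control and BHPF ovary and not well above background on the 4 other arrays (adjusted p 1.19e-05, limma).

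In uterus the leading intervals lay on chromosome 3. The brightest probe of chr3:137736327-137752677 on the forward strand stood at 0.92 in control uterus and 1.03 in BHPF uterus (adjusted p 1.81e-05, limma), against -5.67 and -5.44 in ovary. The interval chr3:137742666-137744470, which lies inside it on the same strand, gave 0.43 and 0.83 and was not flagged outside the uterus. Since the intervals overlap, their probes can share a transcript, and they are not taken as separate findings. The reverse-strand interval chr3:30099759-30133959 gave 0.08 in control uterus and 0.69 in BHPF uterus (adjusted p 1.35e-05, limma), against -5.74 and -5.02 in ovary.

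**Figure D2:**
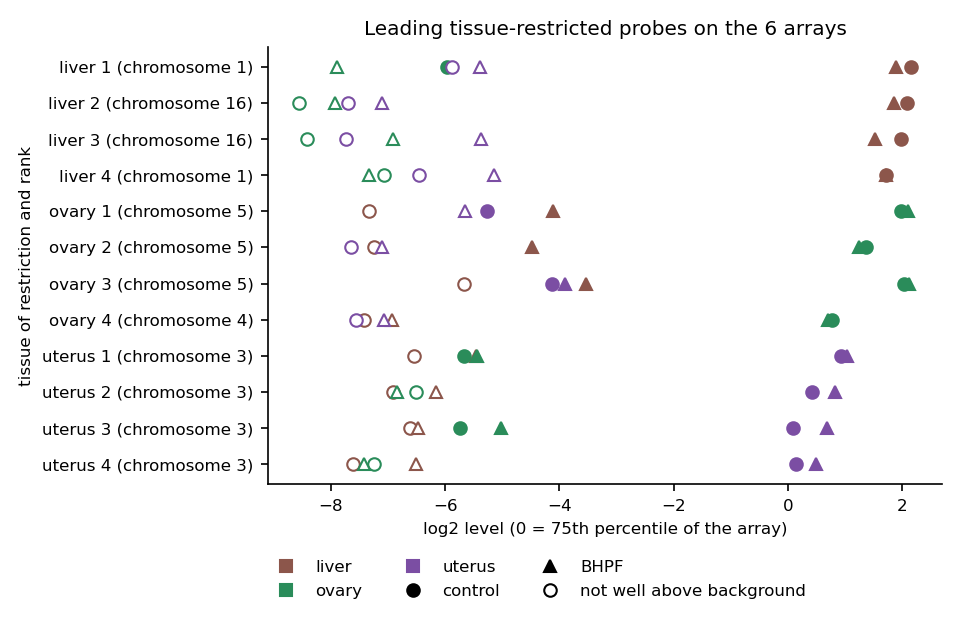
Log2 level (horizontal axis, 0 = 75th percentile of the array) of the 4 probes per tissue with the largest gap to the next tissue, on the 6 arrays. Colour gives the tissue, circles are control and triangles BHPF, and open symbols were not well above background. For all 12 probes both arrays of the named tissue lie to the right of every other array, with the largest gap 7.46 for the first liver probe.

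The 5 probes with the highest mean level were bright in all tissues. The probe of chrX:33750475-33770425 on the forward strand lay between 4.57 and 5.30 on the 6 arrays, and that of chr2:143963320-143984245 between 4.14 and 5.29. The 3 others, in chr2:152172745-152184745 (reverse), chrX:98979320-98997145 (forward) and chr14:78924115-78938125 (forward), lay between 4.35 and 5.27. All 5 passed the tissue test, with adjusted p from 0.000181 to 0.0163 (limma). None of the 5 differed by 2-fold with BHPF in any tissue, and the largest ratio was 0.59, in uterus.

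With BHPF, the interval-named probes of the liver were shifted upwards. Of 8856 probes detected on at least 1 liver array, 865 were at least 2-fold higher with BHPF (9.77%, 95% Wilson interval 9.17 to 10.4) and 32 were at least 2-fold lower (0.361%). The interval covers counting alone and takes the probes as independent. Probes of 1 name resemble each other, so it is too narrow even for that. Over all 36578 probes evaluated in liver, 6.02% were higher and 1.07% lower. Among NM_ probes 3.02% were higher and 1.51% lower, and at the signal levels of the interval-named probes they would have given 590 higher and 185 lower. NR_ and XR_ probes weighted in the same way gave 880 higher and GenBank cDNA clone probes 921, so the shift was shared by the other probe classes outside the NM_ set. Of the 865, 335 were not well above background in control liver, and their fold is a lower limit. The lowest flagged level was -5.62 in control liver and -4.91 in BHPF liver, so a fall past the limit needed a brighter probe than a rise did. With undetected values at their own level 911 were higher and 99 lower, and higher calls made up 90.2%.

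The shift was seen across the whole distribution and not in a tail alone. Over the 7561 probes detected on both liver arrays, the median ratio was 0.25, the quartiles were 0.00 and 0.52, and 74.7% were above 0. For the 18628 NM_ probes detected on both arrays the median was 0.01 and 50.8% were above 0. The size of the shift depends on the scaling. With the 50th percentile in place of the 75th the median of all evaluated probes moved to -0.22 and that of the interval-named probes to -0.05, which kept them 0.17 above, and with quantile normalisation the medians were -0.02 and 0.04. The share of higher probes among those that differed by 2-fold was 96.4% with the 75th percentile, 80.9% with the 50th and 81.5% after quantile normalisation.

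**Figure D3:**
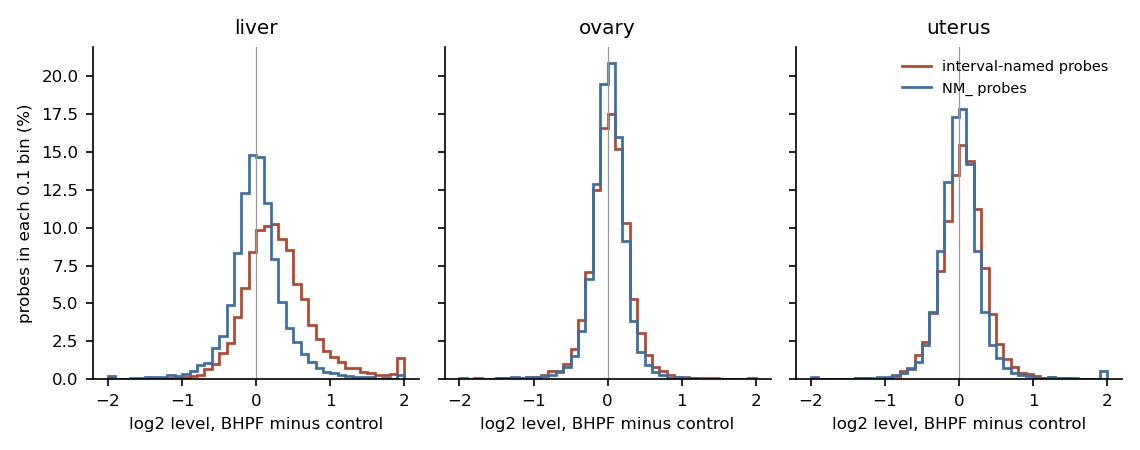
Distribution of the log2 ratio of BHPF to control (horizontal axis; the end bins hold values beyond them) for interval-named and NM_ probes detected on both arrays of the tissue, as a percent of each class per bin (vertical axis). In liver the interval-named curve lies to the right, with medians of 0.25 and 0.01; in ovary the medians are 0.03 and 0.02 and in uterus 0.06 and 0.01.

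The difference from protein-coding probes held over nearly the whole range of signal. In the dimmest of 10 level classes in liver, 17.9% of the interval-named probes were higher with BHPF against 20.1% of NM_ probes of like level. In each of the 9 brighter classes the interval-named share was the larger, for example 12.8% against 6.79% for levels from -4.03 to -3.54, and 5.20% against 2.16% for levels from -2.34 to -1.56. The lower calls ran the other way, with 0.565% against 2.43% in that brighter class. Negative-control spots had a median signal of 15.7 in control liver and 25.2 in BHPF liver. With these medians subtracted from every probe (a setting chosen after the data were seen), 919 were higher and the NM_ shares gave 631. Negative controls were also brighter on the BHPF arrays of ovary (20.7 and 27.6) and uterus (25.7 and 33.5).

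**Figure D4:**
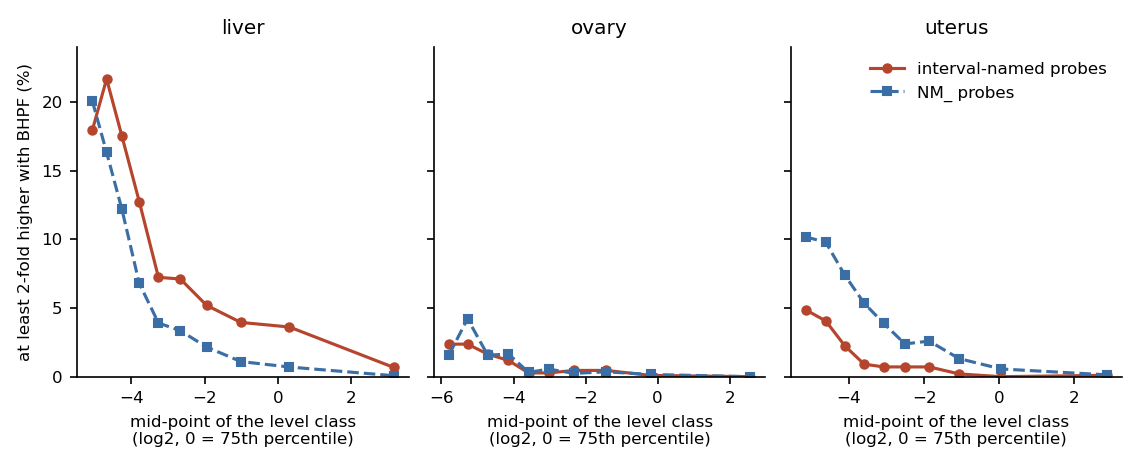
Percent of probes at least 2-fold higher with BHPF (vertical axis) against the mid-point of 10 classes of mean log2 level (horizontal axis) in liver, ovary and uterus, for interval-named probes (circles) and NM_ probes (squares). In liver the circles lie above the squares in all classes but the dimmest (17.9% and 20.1%), and in uterus they lie below in every class.

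The levels of the 865 probes that were higher in BHPF liver are given as a description, since the call itself favours low values in control liver. Their median level was -5.11 in control liver and -3.43 in BHPF liver, against -4.32 in control ovary and -4.11 in control uterus, with undetected values at their limit. All interval-named probes evaluated in liver had a median of -3.14 in control and -2.79 in BHPF liver, -2.87 in control ovary and -2.66 in control uterus. Of the 865, 68.9% were detected on both ovary arrays, compared with 90.8% of all interval-named probes evaluated in liver. The 266 probes restricted to liver had a median liver ratio of 0.08, with 13 higher and 7 lower. Their median level in control liver was -0.20, and the level class of all interval-named probes that holds this value had a median ratio of 0.08 as well.

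The probes described next were taken from those detected on both liver arrays, and the largest limit among the others was 3.70 on the log2 scale, in a group of intervals at chr7:49715933-49843475. A probe of chr13:66381200-66410200 on the reverse strand stood at -4.98 in control liver and -1.46 in BHPF liver, an 11.4-fold difference. This probe was higher in BHPF uterus too (-5.14 and -3.59) but not in ovary (-1.15 and -0.73). All 4 evaluated probes of that name were higher in liver, by at least 1.74 on the log2 scale. However, 3 of the 4 were not well above background in control liver. They were evaluated through the BHPF array where they were bright, so they are not separate support. A probe of chrX:11690182-11690581 (reverse) stood at -4.26 and -0.96, a 9.83-fold difference, but the other probe of that name differed by only 0.70. A probe of chr5:22056218-22206995 (forward) stood at -4.08 and -0.94, 8.86-fold higher, while the other probes of its name gave ratios down to -0.12. The value of 1 probe therefore need not hold for its interval.

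The next of the largest were in chr1:87343550-87362900 (forward; -4.31 and -1.36, with 2 of 3 probes higher) and chr7:66874527-67012170 (reverse; -4.26 and -1.37, the only probe of that name evaluated). In the chromosome 1 name, 1 of the 3 probes was not well above background in control liver. Of the probes lower in liver, that of chr15:84737071-84753414 (reverse) stood at -1.40 in control and -4.27 in BHPF liver, 7.33-fold lower, with 1 of 5 probes past 2-fold. A probe of chr8:117956760-117958872 (reverse) was 6.61-fold lower (-1.48 and -4.21), and one of chr17:8719950-8783850 (forward) 4.66-fold lower (-0.28 and -2.50) although another probe of that name was higher by 1.04 on the log2 scale. All 3 probes of chr15:58985008-58985429 (forward) were lower, with ratios from -1.46 to -1.20, and the one with the largest difference was not well above background outside the liver. The fifth was a probe of chrX:157038750-157039018 (forward), at -2.91 and -4.33.

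Agreement within intervals was therefore counted. In liver, 1409 names had at least 3 evaluated probes. All of their probes were higher in 47 names and all lower in 2, while 291 had at least 1 higher probe and 172 of these had exactly 1. Some of the 47 names include probes not well above background in control liver. Such probes were evaluated through BHPF liver alone, so their ratio could not fall below 0. This held for all 5 probes of chr7:67001975-67050575 (forward) and for none of the 5 of chr8:74333475-74384150 (forward). The 47 names are therefore not a measure of agreement alone. Over probes detected on both liver arrays, in names with at least 3 of them, the SD of the ratio within a name was 0.33. It was 0.49 over all those probes, so probes of a name resembled each other more than unrelated probes did but were far from identical. In ovary 1 of 1929 names had all its probes higher and 6 had all lower. In uterus 1 of 1681 names had all higher and 0 had all lower. Taking 1 mean per name, 314 of 3630 names were at least 2-fold higher in liver and 5 lower.

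Some intervals that lie close together were higher together. Names within 100 kb were joined, which gave 814 groups of at least 4 evaluated probes in liver, 326 of which held at least 1 probe higher with BHPF. In 39 at least 50% of the probes were higher with BHPF, and these held 241 of the 748 higher probes that lie in groups (32.2%). A group on chromosome 7, chr7:71220656-71233680 on the reverse strand, had 14 probes, of which 12 were evaluated in liver and all 12 were higher (ratios 1.37 to 3.47, median 2.05). Of these, 6 were not well above background in control liver, so that they were evaluated through the array where they were bright and their ratio is a lower limit. Its median level over 14 probes went from -5.61 in control liver to -2.87 in BHPF liver and was -5.40 and -5.50 in ovary and -4.24 and -3.98 in uterus. Probes in a group can share a transcript and are not independent of each other.

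Of the 39 groups, 4 also had at least 50% of their evaluated probes lower with BHPF in ovary, and 2 of these lay on chromosome X, which held 5 of the 39. All 9 probes of chrX:92119889-92157256 on the reverse strand were detected on all 6 arrays. Their median level was -2.18 in control liver and 0.16 in BHPF liver, and the 9 ratios ran from 1.93 to 2.83. In ovary the median was -2.13 in control and -3.39 in BHPF, with 7 of 9 probes at least 2-fold lower. In uterus it was -1.78 and -1.63, with no probe past 2-fold.

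The other such group on chromosome X, chrX:123295327-123307974 on the forward strand, had all 9 probes higher in liver (ratios 1.17 to 1.96) and all 9 lower in ovary (-2.23 to -1.63). Its median level was -1.96 in control and -0.19 in BHPF liver, -2.73 in control and -4.60 in BHPF ovary, and -2.64 and -1.98 in uterus. Its uterus ratios lay between 0.32 and 0.72, all above 0 and none past 2-fold. The interval chr16:3337275-3355950 (forward) had 5 of 5 probes higher in liver and 2 of 4 lower in ovary, and the remaining group lay on chromosome 18. The group in which most probes were higher in liver, chosen after its values were seen, was chr5:14921737-15223375 over both strands, with 31 of 32 evaluated probes higher and a median ratio of 1.94. In ovary its median ratio was -0.07 with 1 probe lower, and in uterus it was 0.21 with none past 2-fold.

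**Figure D5:**
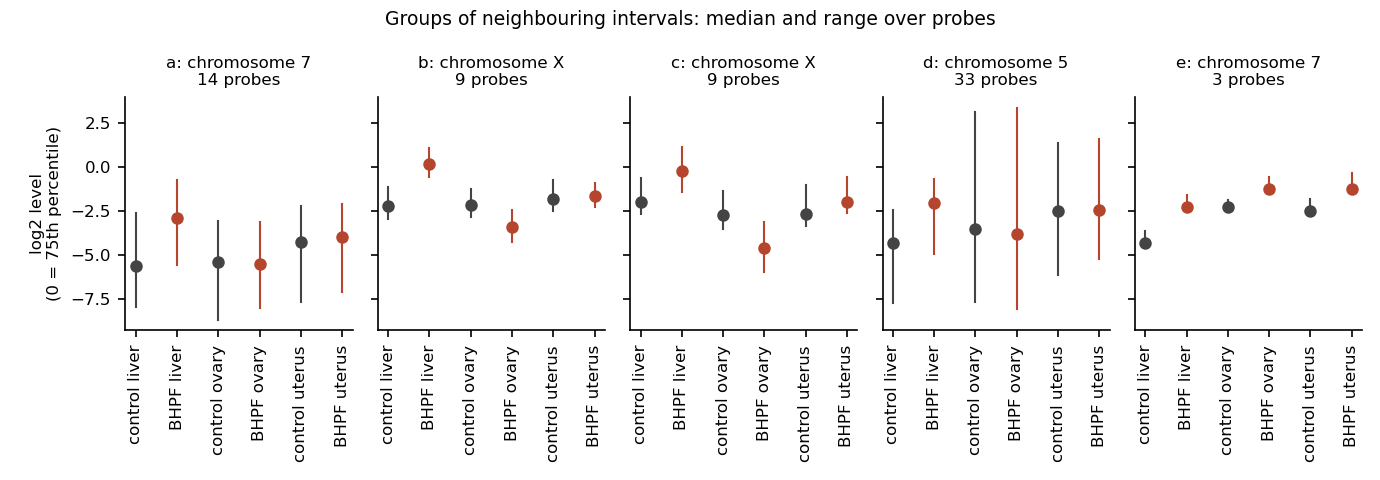
Median (point) and range (line) over probes of the log2 level (vertical axis, 0 = 75th percentile, own values also where not well above background) on the 6 arrays for 4 groups of neighbouring intervals and 1 interval; black is control and red BHPF. Panels b and c, both on chromosome X, lie higher with BHPF in liver and lower in ovary, with median ratios of 2.22 and -1.12 in b and 1.61 and -1.90 in c, whereas the interval in panel e is higher with BHPF in all 3 tissues.

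By chromosome, the share of liver probes higher with BHPF was 20.7% on X (62 of 299), 15.0% on chromosome 4 and 14.2% on chromosome 7, and it was lowest on chromosome 11, 5.13%. Neighbouring probes that are not independent weigh on these shares, and the 62 on X included all 9 probes of each X group described above. The median ratio on X was 0.18, against 0.22 on all other chromosomes, so the probes of X as a whole were not shifted further. Among NM_ probes the shares were 6.01% on X, 2.63% on 4 and 4.93% on 7. Without X the interval-named share was 9.38%, against 2.86% for NM_ probes, so the difference between the classes did not rest on that chromosome. Both strands had nearly the same share, 9.81% forward and 9.71% reverse. The share was 11.4% for intervals under 2 kb and between 9.25% and 10.4% for longer ones.

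Where both strands of an interval carry probes, they could be set side by side. Of 1067 such intervals, 345 had most probes of both strands detected in liver and 280 had those of 1 strand. Over the 345, the median ratios of the strands correlated with Pearson r = 0.55 and had the same sign in 76.2%. In ovary r was 0.42 over 537 intervals and in uterus 0.40 over 432. The strands share the arrays and the scaling, so these values are a description.

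In ovary the interval-named probes differed little with BHPF. Of 10975 evaluated, 100 were at least 2-fold higher (0.911%) and 56 lower (0.510%), against 0.681% and 0.593% of all 41674 probes. NM_ probes at like level would have given 117 higher and 136 lower. With undetected values at their own level in place of the limit, the lower calls went from 56 to 185 and the higher from 100 to 125, so that higher calls made up 64.1% with the limit and 40.3% without it, and the balance turned. Over the 9682 probes detected on both arrays the median ratio was 0.03.

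The largest ovary differences rested on few probes. A probe of chr17:27445260-27455641 (reverse) stood at -5.80 in control ovary and 1.21 in BHPF ovary, a 129-fold difference, while the other evaluated probe of that name was higher by 1.06. It was not well above background in BHPF uterus or on either liver array. A probe of chr4:82979473-83035023 (reverse), the only one of 5 evaluated, stood at -5.62 and -1.14. The next were probes of chr17:88993214-89025839 (reverse; -5.86 and -2.93), chr1:92151850-92156697 (reverse; -5.83 and -2.94) and chr16:93121505-93142255 (reverse; -5.93 and -3.44), where the lowest flagged level in control ovary was -6.33. Among the 5 largest falls were 4 probes of the chromosome X group described above, and the fifth, in chr6:129151512-129208737 (reverse), stood at -2.43 in control and -4.31 in BHPF ovary and was also lower in uterus (-1.45 and -2.79), with 3 of 8 probes of its name lower in ovary.

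In uterus 143 of 9857 interval-named probes were at least 2-fold higher (1.45%) and 65 lower (0.659%), against 1.88% and 0.773% of all 38802 probes. NM_ probes at like level would have given 429 higher and 154 lower. The probes were also split by their level in liver. Of the 441 NM_ probes higher in BHPF uterus, 306 (69.4%) were at least 4-fold brighter in control liver than in control uterus, whereas this held for 3 of the 143 interval-named probes (2.10%). Liver-restricted NM_ probes were higher in BHPF uterus for 298 of 1218 evaluated, and liver-restricted interval-named probes for 3 of 187, with a median ratio of 0.07. The part of these probes in the difference between the classes was not tested. The share of higher calls was 68.8%, and it was 49.4% with undetected values at their own level.

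Among the largest uterus differences, most were single probes again. Probes of chr17:13806767-13824342 (forward; -4.72 in control and -2.70 in BHPF uterus) and chr5:31862823-31871445 (forward; -4.51 and -2.49) were 4.06-fold and 4.05-fold higher, with no other probe of the name past 2-fold. The others were in chr2:113880070-113887230 (forward; -5.36 and -3.49), chr17:46972160-46997919 (reverse; -4.19 and -2.36) and chr15:79276925-79286500 (forward; -2.82 and -1.09). Of the lower probes, 4 were the only one of their name past 2-fold, in chr11:3538125-3554450 (reverse; -1.14 and -3.69, 5.86-fold lower and 1 of 9 probes), chr14:77511189-77522852 (forward; -1.21 and -3.26), chr13:23517278-23523756 (forward; -1.62 and -3.46) and chr5:34696192-34722842 (reverse; -1.82 and -3.62). The fifth, in chr2:128142035-128142481 (reverse; -3.10 and -4.64), had 2 of 3 probes lower.

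Probes that differed in the same way in all tissues were also counted. Of 8065 interval-named probes evaluated in all 3, 5 were at least 2-fold higher in each and none was lower in each. The same count was not made over all probes, so whether 5 is few or many for the array cannot be told. All 3 probes of chr7:28592214-28605984 on the forward strand were among the 5. They stood at -4.39, -4.29 and -3.62 in control liver and at -2.44, -2.25 and -1.56 in BHPF liver. In ovary they ranged from -2.38 to -1.88 in control and from -1.25 to -0.57 with BHPF, and in uterus from -2.52 to -1.79 and from -1.22 to -0.33. Each of the 3 probes was thus brighter on the BHPF array than on the control array of all 3 tissues. The fourth was a probe of chr7:28604760-28605984, which lies within the same interval on the same strand. The fifth was a probe of chr17:46972160-46997919 (reverse), which was not well above background in control liver and was at least 2.14-fold higher there, 2.38-fold higher in ovary and 3.57-fold higher in uterus.

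The common effect of BHPF over the tissues was the only BHPF comparison with a test, and it called none of the 10252 probes and 0% of all 40432 (limma). The fit takes the pairs of arrays of the 3 tissues as independent, which they are not if their pools came from the same animals. At an unadjusted p under 0.05 there were 571 interval-named probes (5.57%, against 5.53% of all probes), 469 of them higher. The lowest adjusted p was 0.565, for a probe of chr7:28592214-28605984 (log2 difference 1.61, SE 0.18). The others of the lowest 5 were 2 more probes of that name, 1 of chr17:46972160-46997919 (0.91, SE 0.13) and 1 of chr17:6265275-6362150 on the reverse strand (1.27, SE 0.20), with adjusted p from 0.650 to 0.720 (limma). Each was higher with BHPF in all 3 tissues.

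The 865 probes higher in liver were also followed in the other tissues. In ovary 712 were evaluated, of which 14 were higher and 29 lower, and 43.0% had a ratio above 0, against 53.2% of all interval-named probes evaluated in both tissues. In uterus 684 were evaluated, of which 25 were higher and 3 lower, and 58.5% were above 0, against 54.5%. Over 6820 probes detected on all arrays, the ratios of liver and ovary correlated with r = 0.03, those of liver and uterus with 0.18 and those of ovary and uterus with 0.10, as a description over probes that share each array. For NM_ probes the same values were 0.25, 0.07 and 0.09. Each tissue had its own control pool.

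Named long noncoding RNA genes gave a point of reference. From a list of 34, 20 had a probe matched through RefSeq. In liver 1 of the 20 passed 2-fold, upwards, and the median ratio was 0.05, and in ovary (19 evaluated) and uterus (20) none differed by 2-fold. The nuclear RNAs Malat1 (0.06) and Neat1 (0.32) and the X-inactivation RNA Xist (0.04) were within 2-fold in liver. The 1 past it was Ipw, a noncoding transcript of the imprinted Prader-Willi region on chromosome 7, with a liver ratio of 3.13. Its 1 probe stood at -5.425 in control liver, near the lowest flagged level of -5.62 there, and at -2.29 in BHPF liver. The interval group chr7:66874527-67120697 had 11 of 19 evaluated probes higher in liver (median ratio 1.17). Of the 19, 7 were not well above background on 1 of the liver arrays. Whether this group overlaps Ipw was not determined here, since the only gene positions at hand were on another build.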

How the data were processed

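Total RNA of each pool was labelled with Cy3 and hybridised to one-colour Agilent mouse arrays. Per the file headers, the deposited scanner files hold processed signal intensity from Agilent Feature Extraction, background-subtracted and not scaled between arrays; the headers and the submitters' processing notes (which name 9.1) give different versions. The deposited value table holds the authors' log2 values, and it served as an alternative. The precision of the levels is limited by 1 array a group.

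From these, log2 of the processed signal minus the 75th percentile of each array was computed over 55681 non-control probes, with repeated spots averaged and outlier spots left out (8 to 25 interval-named probes an array had none left). NM_ shares at like level were taken within 10 classes (deciles of the interval-named probes' mean level). Tissue and the common BHPF term were fitted with limma 3.58.1 (R 4.3.3; lmFit, eBayes with trend), and the rest with Python 3.11.15, pandas 2.3.3, numpy 2.4.6 and scipy 1.17.1. Steps were tested on simulated data. Normexp used median signals. Intervals over 1 Mb were not joined to neighbours. RefSeq symbols were matched for 26762 probes.

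Members, lists and tests were chosen with earlier results of these data known. Probes named are, per tissue, the 5 largest rises and falls among those detected on both arrays and the 4 most restricted, the 5 brightest, up to 5 called alike in 3 tissues, up to 3 neighbour groups and the 5 lowest adjusted p of the BHPF term. Intervals on chromosome 18 were counted but not named. Cell type marker lists (liver, ovary, uterus, neutrophil, adipocyte, erythroid, oviduct, pancreas) served as checks. The erythroid, oviduct and pancreas lists had at most 1 gene past 2-fold in any tissue.

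Alternatives were other scalings, quantile normalisation, normexp, other detection rules and fold limits, undetected values as measured, 1 value a name, and each array left out of the limma fit.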

Additional observations from a re-analysis of the deposited data

Results flagged for a closer look

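Some probes passed 2-fold in opposite directions in different tissues; these differences between tissues were not tested, since each contrast rests on 1 array a side. Of 8415 interval-named probes evaluated in liver and ovary, 29 were called in opposite directions, and all 29 were higher with BHPF in liver and lower in ovary (0.345%). Over all 35023 probes evaluated in both, 41 were opposite (0.117%), and among NM_ probes 6 of 19310 (0.0311%). The neighbour groups chrX:92119889-92157256 and chrX:123295327-123307974 held 16 of the 29. Between liver and uterus 4 of 8172 were opposite, of which 3 were higher in liver, and between ovary and uterus 5 of 9472, of which 3 were higher in ovary. Over all probes these shares were 0.0583% and 0.0507%, against 0.0489% and 0.0528% of the interval-named probes. A probe of chr1:84961943-84962737 on the forward strand was lower in liver (-1.12) and ovary (-1.52) and higher in uterus (1.44).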

How the results depend on the processing

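With 1 array a group no count below has a replicate error. Animals could not be paired, because each group holds 1 pool. The limma fit pairs the arrays by tissue and so sets BHPF against control within the tissues. The higher liver count (865, 590 at NM_ shares) was 463 (278) after quantile normalisation, 491 (312) with the 50th percentile and 530 (293) where both arrays had to be detected, and the interval-named count was the larger under each. The lower liver count (32) was 105, 116 and, with both detected, 22. Without a detection filter the counts higher and lower were 2733 and 172 in liver, 343 and 392 in ovary and 593 and 311 in uterus. With a 4-fold threshold they were 165 and 4 in liver, 17 and 5 in ovary and 25 and 13 in uterus, and with 1 value a name 314 and 5, 20 and 12, and 60 and 14. With undetected values as measured, lower counts were 99 in liver, 185 in ovary and 155 in uterus, and with the authors' table, uterus columns exchanged, 100, 184 and 155. With normexp they were 30 in ovary and 39 in uterus. With both arrays detected, higher counts were 51 in ovary (64 at NM_ shares) and 60 in uterus (184), with 28 lower in uterus. Alternatives chosen after seeing the data were subtraction of the negative-control median, with 55 lower in liver and 98 in uterus, and the authors' uterus columns as headed, with 155 higher and 151 lower. In uterus the share of higher calls was 68.8%, and it was 58.7% after quantile normalisation and 81.1% with 1 value a name; in ovary it was 75.6% with normexp. Probes restricted to liver were 748 with a 2-fold gap and 130 with an 8-fold gap, to ovary 547 and 59 (280 with undetected values as measured) and to uterus 665 and 73. With every array kept, the tissue test called between 6405 (values floored at the limit) and 7263 (50th percentile) interval-named probes. The BHPF term called 0 interval-named probes in each of these fits, with unadjusted counts from 494 (50th percentile) to 1670 (normexp). Over all probes it called 3 with the 50th percentile, 1 with normexp, 1 with values floored and 0 in the others. With 1 array left out, a tissue keeps 1 array, so those counts are not given. Of 395 alternative values for named probes, 312 stayed within spot noise, 83 moved beyond it and 0 changed sign. Settings that change only the detection rule or the limit leave a probe detected on both arrays as it was. These probes were also picked for their ratios. The counts therefore do not measure how stable the values are. The causes of these changes were not tested.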
